A study of Mus musculus with 10 samples.

Results

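Alpha cells secrete glucagon and beta cells secrete insulin, and the 2 cell types lie side by side in the islets of the pancreas. Their transcripts were compared by RNA sequencing of cells sorted by fluorescence from the islets of adult mice. Every mouse was triple transgenic: it carried mIns1-H2b-mCherry, a red reporter driven by the Ins1 promoter, together with a floxed YFP allele and either Gcg-cre or Sst-Cre. The 3 alpha libraries hold YFP-positive cells of the Gcg-cre mice, 2 from male and 1 from female pools. The 5 beta libraries hold mCherry-positive cells, 2 from male and 3 from female pools, and the labels do not say which Cre line each pool carried. No group was treated, and all islets were kept overnight at 5.5 mM glucose before sorting. Each pool combined islets of 10 to 12 animals, so a library stands for a pool and not for an animal, and the labels do not state that every library is a separate pool. The spread between libraries may therefore be technical in part. Since the Gcg and Ins1 promoters drove the labels used for sorting, the levels of Gcg and of the insulin genes are a check of the sort rather than a finding, and a Cre label stays on in any cell that once had an active Gcg promoter.

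The comparison takes in each gene with at least 1 RPKM (reads scaled to gene length and to the reads of the library) in at least 2 of the 8 libraries. These were 12273 of the 19213 gene rows. Of them, 10952 reached that level in at least 2 libraries of both cell types, 679 in alpha libraries alone, 607 in beta libraries alone, and 35 in 1 library of each. A gene that entered through 1 cell type alone had to be low in the other, so the counts below are read against the share of all tested genes called in the same direction.

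In an islet, the alpha cell raises blood glucose and the beta cell lowers it. A mouse beta cell takes up glucose through the transporter Slc2a2, breaks it down by glycolysis, and oxidises the products in mitochondria. The ATP so made closes potassium channels, calcium enters, and insulin granules fuse with the membrane. Alpha cells share much of this machinery but release glucagon when glucose is low and when amino acids or adrenaline are present. Both types arise from the same endocrine progenitors, and transcription factors such as Pdx1 and Nkx6-1 in beta cells hold them apart.

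The 5′ flanks of the hormone genes that name the cell types are shown first, since the transcription factors described below are known to bind promoters of this kind. Each run is the 250 bases before the transcription start, from RefSeq on GRCm38.p6, written 5′ to 3′ on the strand of the gene. Gcg lies on the minus strand (chr2:62483654-62483903) and Ins1 on the plus strand (chr19:52264047-52264296). Capitals mark TAAT, a core bound by homeobox factors, on either strand, and CANNTG, the E-box bound by helix-loop-helix factors. The 2 motifs do not overlap in these windows.
Gcg: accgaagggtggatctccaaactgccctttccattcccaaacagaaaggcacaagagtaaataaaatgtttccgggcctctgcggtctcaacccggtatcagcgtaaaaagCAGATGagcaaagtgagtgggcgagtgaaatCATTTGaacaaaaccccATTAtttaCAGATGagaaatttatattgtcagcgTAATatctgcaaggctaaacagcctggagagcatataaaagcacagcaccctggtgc
Ins1: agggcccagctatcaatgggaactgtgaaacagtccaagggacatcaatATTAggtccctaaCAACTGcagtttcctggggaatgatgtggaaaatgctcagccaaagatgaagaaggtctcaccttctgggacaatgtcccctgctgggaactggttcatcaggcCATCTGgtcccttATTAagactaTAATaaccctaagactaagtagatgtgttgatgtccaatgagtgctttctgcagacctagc
The Gcg window holds 2 matches of TAAT and 3 of CANNTG, and the Ins1 window 3 and 2. Such short letters are common: of 32851 promoter windows of 300 bases, 58% hold TAAT and 72.3% hold CANNTG. Among tested genes with a window, TAAT was present for 43.3% of those higher in alpha cells, 46.6% of those lower and 45.6% of those not called.

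The labels held in every library. Alpha cell markers were called higher for 12 of 13 genes, and beta cell markers lower for 18 of 19. The exceptions were Dpp4, a peptidase gene (10.1 ± 2.38 against 18.9 ± 4.59 RPKM, not called without alpha replicate 3 with an adjusted p of 0.0956), and Slc30a8, described below. Gcg, the gene of proglucagon (chromosome 2, 62474530 to 62483650 on GRCm38), stood at 272196, 244207 and 249087 RPKM in alpha replicates 1 to 3 and 464, 1352, 1485, 1218 and 2852 RPKM in beta replicates 1 to 5. Every alpha library exceeded every beta library, and the beta mean was 0.578% of the alpha mean. Ins2 stood at 2048, 1969 and 1617 RPKM in alpha replicates 1 to 3 and 363484, 252913, 239550.0, 214339 and 177833 RPKM in beta replicates 1 to 5, the reverse pattern, with an alpha mean of 0.752% of the beta mean. Iapp, the amylin gene, averaged 2309.9 ± 259 against 55437 ± 4709 RPKM (-4.63). Mafa, an activator of the insulin genes (chromosome 15, 75745490 to 75748228), stood at 1.5, 1.21 and 1.17 RPKM in alpha replicates 1 to 3 and 141, 239, 109, 172 and 125 RPKM in beta replicates 1 to 5. Its groups lay far apart as well (log2 fold change -5.98, SE 0.21, adjusted p = 5.09e-08). Fold changes in this text are differences, alpha minus beta, of log2(RPKM + 1), with the standard error (SE) of the limma fit and a p-value adjusted by the Benjamini-Hochberg method over all 12273 genes. Called means an adjusted p under 0.05. The scale understates the change of genes with few reads. Levels are means ± SD over the libraries of a type (n = 3 for alpha, n = 5 for beta). Levels joined by "against" are those of alpha and beta cells in that order, and a number that follows them in brackets is the log2 fold change. Over the 180 genes named in this text and called, the SE of the log2 fold change was 0.08 to 0.63 and the highest adjusted p 0.0321. Ins1 and Ins2 are near-identical, as are Ppy and Pyy in part, and how reads matching more than 1 gene were counted is not given in the sources at hand.

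**Figure D1:**
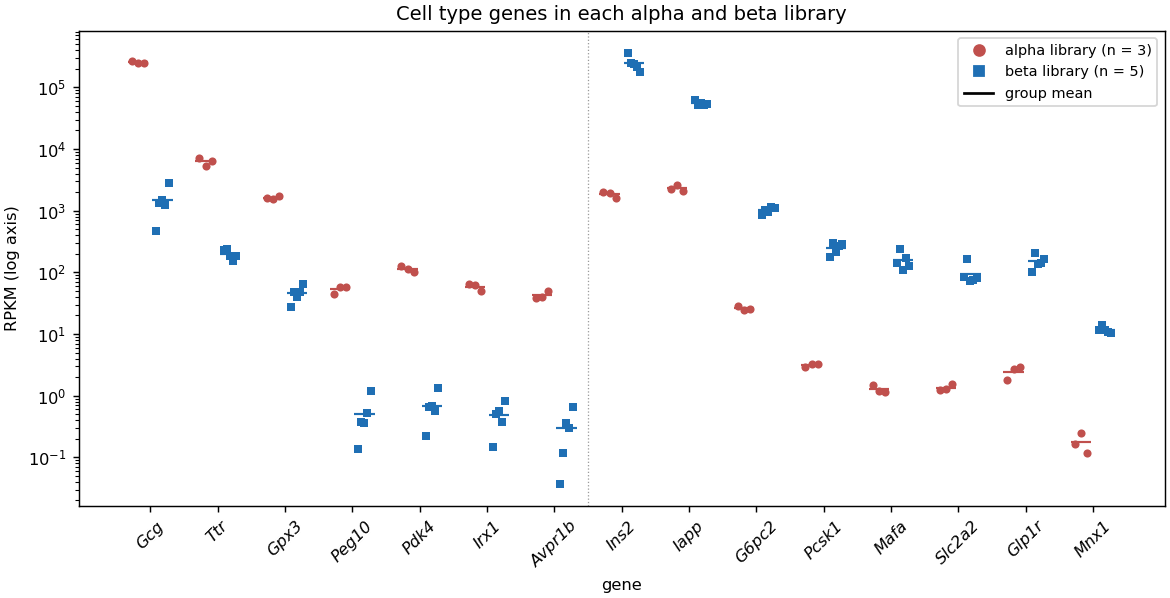
RPKM on a log axis of 15 cell type genes in each of the 3 alpha libraries (circles) and 5 beta libraries (squares), with a line at each group mean. The 7 genes left of the dotted line are higher in every alpha library than in any beta library, and the 8 genes to its right are lower, with Gcg near 255163 RPKM in alpha and Ins2 near 249624 RPKM in beta cells.

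Library totals recovered from the values were 16688097 to 17441439 reads for alpha and 17755859 to 26684086 for beta libraries. Rank correlations over the tested genes were 0.976 to 0.988 within alpha, 0.955 to 0.987 within beta and 0.815 to 0.88 between the types. Xist and the Y-linked genes fitted the labelled sex in all 8 libraries. Alpha replicate 1 stood apart in ribosomal RNA: Rn45s, the precursor of ribosomal RNA, was at 7443 RPKM there, against 1373 and 917 in the other alpha libraries and 534 to 709 in beta libraries. Rn45s was called as higher in alpha cells (adjusted p = 0.0321) but not without beta replicate 1 (0.078) or beta replicate 3 (0.0838). Acinar enzymes, from the exocrine cells around islets, varied more within than between types, with summed levels of 124 to 4429 RPKM in alpha and 278 to 13776 in beta libraries, and 0 of 23 called. Immune markers were all 13 lower in alpha cells, beside 31.3% of all genes, with sums of 26.3 to 45.6 RPKM against 139 to 267. A marker that is low in alpha libraries can pass the filter through the beta libraries, which favours this direction. Of the 19 immune markers analysed, 4 were under 1 RPKM in every alpha and beta library, namely Ptprc, Itgam, Cd3e and Cd79a. The calls of the immune markers C1qa and Cd68 were lost without alpha replicate 3 (adjusted p = 0.0647 and 0.0698). In sorted pools, fewer cells that carry a transcript and less transcript per cell cannot be told apart.

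Alpha and beta cells differed at 55% of the tested genes. Of 12273 genes, 2910 were higher in alpha cells (23.7%) and 3837 lower (31.3%). By at least 2-fold, 914 were higher (7.45%) and 984 lower (8.02%). The libraries of the 2 types did not overlap for 2514 genes with alpha above (20.5%) and 3679 with alpha below (30.0%). The balance of directions depended on scaling: 43.1% of the calls were higher with values as deposited, 48.3% after median-ratio scaling, and 53.9% (3808 higher, 3252 lower) with hormone reads left out of the library totals, an alternative chosen after seeing the data. The 7 hormone genes took 27.5% to 30.9% of alpha and 17.6% to 31.8% of beta libraries. Without alpha replicate 3, the female one, 1779 genes were higher and 2773 lower, and without alpha replicate 1, which stood apart in ribosomal RNA, 2758 and 3347. In all, 1074 genes were higher and 1977 lower in each of the 20 fits. The fit with a filter of at least 5 RPKM tests 9297 genes, so the genes it leaves out could not enter these 2 counts.

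The direction also varied with the level of the gene. Among the 392 tested genes above 100 RPKM (mean of the 2 group means), 53.3% were lower and 16.6% higher in alpha cells, with a median log2 fold change of -0.35. Among the 5712 genes from 1 to 10 RPKM, 21.4% were lower and 30.7% higher, with a median of 0.14. The median over all tested genes was -0.03. The beta libraries were also deeper, and the part of depth in this pattern was not tested.

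**Figure D2:**
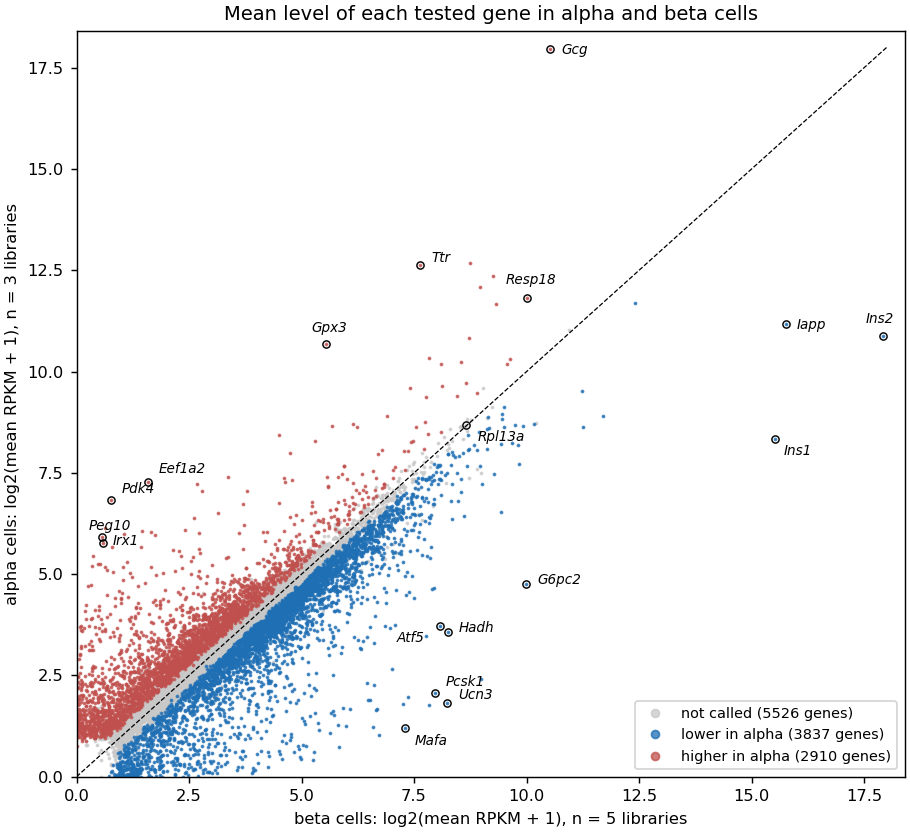
Mean level of each of the 12273 tested genes in beta cells (horizontal axis) against alpha cells (vertical axis), both as log2(mean RPKM + 1), with the line of equal levels dashed. Red points are the 2910 genes called higher in alpha cells, blue points the 3837 called lower and grey points those not called, and circled genes are named.

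Beyond glucagon, the largest differences on the alpha side included genes of a metabolic kinase, a translation factor, secreted proteins and an inhibitor of transcription factors. The homeobox gene Irx1 and the receptor gene Avpr1b, described below, also differed widely. Pdk4, a kinase that shuts pyruvate out of the mitochondrial citric acid cycle (chromosome 6, 5483351 to 5496309), stood at 126, 112 and 101 RPKM in alpha replicates 1 to 3 and 0.221, 0.664, 0.669, 0.573 and 1.33 RPKM in beta replicates 1 to 5. It was among the few genes over 100 RPKM in alpha cells and mostly under 1 RPKM in beta cells. Peg10, an imprinted gene derived from a retrotransposon (chromosome 6, 4747306 to 4760517), stood at 44.2, 58.3 and 57.7 RPKM in alpha replicates 1 to 3 and 0.137, 0.375, 0.363, 0.516 and 1.17 RPKM in beta replicates 1 to 5 (log2 fold change 5.3, SE 0.17, adjusted p = 3.46e-08). Its imprinted neighbour Sgce, which encodes epsilon-sarcoglycan, showed the same contrast (35.1 ± 2.42 against 0.54 ± 0.525 RPKM, 4.68). Eef1a2, a translation elongation factor of muscle and neurons, averaged 154 ± 18.8 against 1.99 ± 0.832 RPKM (5.79). Gpx3, the secreted glutathione peroxidase, averaged 1635 ± 95.1 RPKM in alpha and 45.8 ± 14.2 in beta libraries. It was one of the most abundant alpha transcripts and differed by 5.28. Ttr, the plasma carrier of thyroid hormone and retinol (chromosome 18, 20665280 to 20674321), averaged 6318 ± 906 RPKM in alpha and 198 ± 35.5 in beta libraries (5.0). The list of the 15 largest differences also held Rcn3, a calcium-binding protein of the secretory pathway (4.9), Klhl13, an adaptor of ubiquitin ligases (4.78), and Id1, an inhibitor of helix-loop-helix factors (4.68).

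On the beta side the largest differences after the insulin genes included those of a convertase, a serine protease and secreted peptides. Pcsk1, the convertase that cuts proinsulin (chromosome 13, 75089826 to 75134861), stood at 2.93, 3.23 and 3.33 RPKM in alpha replicates 1 to 3 and 177, 304, 216, 269 and 284 RPKM in beta replicates 1 to 5. The lowest beta library exceeded the highest alpha library many times over. Prss53, a serine protease gene, averaged 4.36 ± 0.924 against 505 ± 165 RPKM (-6.48). Pdyn, which encodes the opioid precursor prodynorphin, averaged 2.93 ± 1.51 against 164 ± 31.1 RPKM (-5.43), and Enho, which encodes the secreted peptide adropin, 2.13 ± 0.477 against 99.2 ± 28.9 RPKM (-5.06). Tmem215, a membrane protein gene, averaged 0.655 ± 0.106 RPKM in alpha and 56 ± 7.89 in beta libraries. It was one of 24 genes at 10 RPKM or more in every beta library and under 1 RPKM in every alpha library. The reverse held for 27 genes, among them Irx1, Avpr1b, Nts and Kcnk3.

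Transcription factors of islet cells were more often higher in alpha cells. Of 43 tested, 22 were higher and 10 lower, beside 23.7% and 31.3% of all genes, with a median log2 fold change of 0.59. Irx1 and Irx2, homeobox genes of the same cluster (chromosome 13, 71957921 to 71963723 and chromosome 13, 72628820 to 72634198), averaged 59 ± 8.28 against 0.486 ± 0.253 RPKM and 62.8 ± 4.17 against 1.06 ± 0.44 RPKM. Irx1 stood at 64.6, 62.9 and 49.5 RPKM in alpha replicates 1 to 3 and 0.148, 0.496, 0.574, 0.376 and 0.836 RPKM in beta replicates 1 to 5. Pou3f4 (11.9 ± 2.49 against 0.0545 ± 0.0396 RPKM), a POU factor, Fev (23.1 ± 1.49 against 0.923 ± 0.158 RPKM), known from serotonin neurons and endocrine progenitors, and Gata6 (14.4 ± 1.55 against 2.57 ± 0.648 RPKM), a factor of pancreas formation, were higher too.

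Factors that hold beta cell identity formed the opposite set. Pdx1, which activates Ins2 and Slc2a2, stood at 5.08, 3.36 and 3.07 RPKM in alpha replicates 1 to 3 and 86, 121, 85.6, 98.8 and 93 RPKM in beta replicates 1 to 5. Nkx6-1 stood at 8.31, 9.6 and 8.72 RPKM in alpha replicates 1 to 3 and 79.4, 132, 82, 103 and 88.3 RPKM in beta replicates 1 to 5, so the alpha libraries held several RPKM of this homeobox factor. Mnx1, needed in beta cells to keep other endocrine programmes off, averaged 0.176 ± 0.0637 RPKM in alpha and 11.7 ± 1.4 in beta libraries. Mlxipl, the carbohydrate response factor ChREBP, averaged 3.19 ± 0.579 against 32.1 ± 8.18 RPKM (-2.98), and Glis3, mutated in a form of neonatal diabetes, 3.48 ± 0.209 against 9.38 ± 2.41 RPKM (-1.11). Insm1, a zinc finger factor shared by endocrine cells, was lower as well (48.2 ± 6.53 against 103 ± 12.5 RPKM, -1.05). Several shared factors did not differ beyond the spread: Pax6 averaged 90.7 ± 13.9 RPKM in alpha and 93.8 ± 16.8 in beta libraries, with a 95% interval of -0.35 to 0.35 for the log2 fold change. Nkx2-2 averaged 36.2 ± 1.66 against 42.2 ± 4.57 RPKM (95% interval -0.43 to 0.02), and Hnf4a 7.51 ± 0.287 against 8.64 ± 1.33 RPKM (-0.37 to 0.12). Isl1, which is present in all endocrine cells of the islet, was higher in alpha cells (79 ± 4.83 against 41.5 ± 9.41 RPKM, 0.96).

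**Figure D3:**
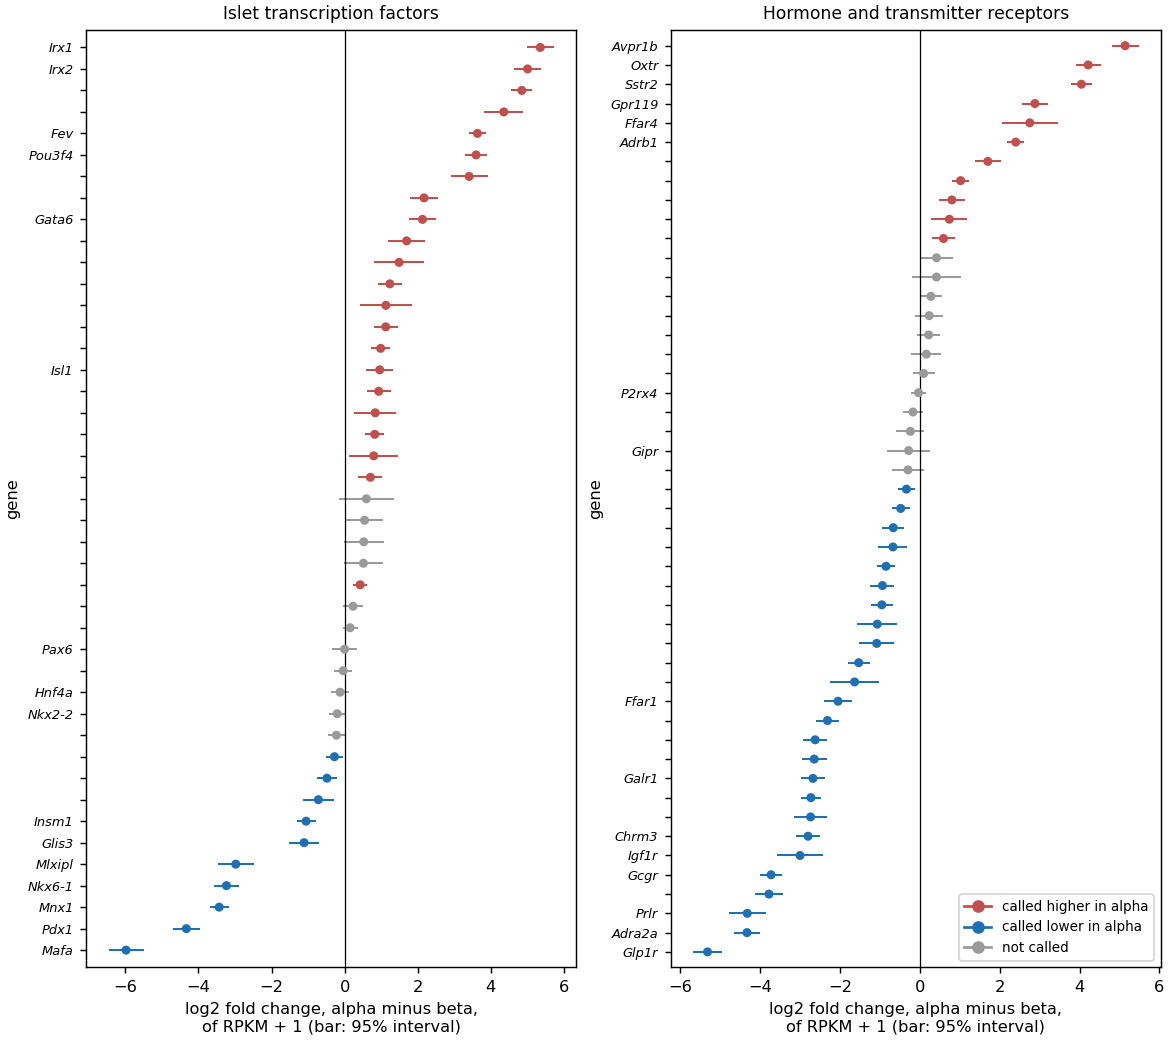
Log2 fold changes of RPKM + 1, alpha minus beta, of 43 islet transcription factors (left) and 48 hormone and transmitter receptors (right), with 95% intervals. Red marks genes called higher in alpha cells, blue those called lower and grey those not called. Irx1 (5.35) and Avpr1b (5.14) lead at the top, and Mafa (-5.98) and Glp1r (-5.32) stand at the bottom. Names are printed for genes described in the text.

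Among 22 peptides other than the main islet hormones, 7 were higher and 7 lower in alpha cells, beside 23.7% and 31.3% of all genes. With a filter of at least 5 RPKM, which leaves out members with low values, 3 were higher. Edn3, which encodes endothelin 3, stood at 70.3, 67.4 and 69.4 RPKM in alpha replicates 1 to 3 and 0.192, 0.371, 0.624, 0.448 and 1.16 RPKM in beta replicates 1 to 5. Nts, the gene of neurotensin, averaged 37.2 ± 24.4 against 0.39 ± 0.182 RPKM (4.47). Both were under 1 RPKM in the mean of beta libraries. Ucn3, a peptide that beta cells release to activate delta cells, stood at 2.43, 2.85 and 2.37 RPKM in alpha replicates 1 to 3 and 359, 426, 285, 204 and 222 RPKM in beta replicates 1 to 5. Npy, neuropeptide Y, averaged 1.95 ± 0.535 against 38.3 ± 32.7 RPKM (-3.08), and Nucb2, the precursor of nesfatin, 45.3 ± 3.19 against 143 ± 11.3 RPKM (-1.61). Vgf, a granin-like precursor, stood close to parity at 190.2 ± 37.1 against 161 ± 38.8 RPKM (95% interval -0.14 to 0.75) and was not called, except after quantile normalization and with title pairs as blocks. Ghrl, the ghrelin gene of epsilon cells, averaged 4.55 ± 4.31 against 0.548 ± 0.323 RPKM. Of the main hormones, Ppy and Pyy averaged 5268 ± 1104 against 608 ± 191 RPKM and 6607 ± 1879.8 against 426 ± 112 RPKM. All 4 tested PP and epsilon cell markers (PP cells make pancreatic polypeptide) were higher in alpha libraries. Sst, the somatostatin gene that marks delta cells, moved with them, at 2937, 1079.7 and 1470.4 RPKM in alpha replicates 1 to 3 and 99.6, 200.4, 353, 535 and 922 RPKM in beta replicates 1 to 5 (log2 fold change 2.54, SE 0.63, adjusted p = 0.00759). Its groups did not overlap, but the lowest alpha library lay close to the highest beta library. Delta cell markers summed to 1479 to 3316 RPKM in alpha, 163 to 1031 in beta and 54982 to 63511 in delta libraries, and delta libraries averaged 17546 RPKM of Ppy and 26935 RPKM of Pyy. Their part in the levels of Ppy, Pyy and Ghrl was not tested.

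Surface receptors were more often lower in alpha cells. Of 48 tested, 25 were lower and 11 higher, beside 31.3% and 23.7% of all genes (median -0.41). The share of higher receptors was thus near that of all genes. Glp1r, the receptor of the incretin GLP-1 (chromosome 17, 30901817 to 30940791), stood at 1.78, 2.72 and 2.91 RPKM in alpha replicates 1 to 3 and 100.5, 204, 138, 144 and 166 RPKM in beta replicates 1 to 5. Gcgr, the receptor of glucagon itself, stood at 0.28, 0.184 and 0.327 RPKM in alpha replicates 1 to 3 and 16.6, 15.9, 18.2, 12.3 and 14.3 RPKM in beta replicates 1 to 5, and so below 1 RPKM in each alpha library. Adra2a, the alpha-2A adrenergic receptor that restrains insulin release, averaged 0.683 ± 0.162 RPKM in alpha and 33.4 ± 5.73 in beta libraries. Other receptors lower in alpha cells were Prlr for prolactin (0.398 ± 0.0612 against 30.1 ± 10.0 RPKM), Igf1r for insulin-like growth factor (4.74 ± 1.32 against 50.7 ± 19.6 RPKM), Ffar1 for long-chain fatty acids (10.9 ± 1.16 against 50.3 ± 8.96 RPKM), the muscarinic receptor Chrm3 (0.95 ± 0.254 against 13.4 ± 2.51 RPKM) and the galanin receptor Galr1 (0.593 ± 0.0985 against 9.46 ± 1.4 RPKM).

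The receptors higher in alpha cells bind pituitary peptides, somatostatin, lipids and adrenaline. Avpr1b, a vasopressin receptor (chromosome 1, 131599239 to 131612000), stood at 38, 40.1 and 49.1 RPKM in alpha replicates 1 to 3 and 0.0368, 0.118, 0.367, 0.301 and 0.65 RPKM in beta replicates 1 to 5 (log2 fold change 5.14, SE 0.15, adjusted p = 2.61e-08). Oxtr, the oxytocin receptor, stood at 46.9, 59.5 and 42.1 RPKM in alpha replicates 1 to 3 and 1.3, 1.61, 1.63, 2.01 and 1.97 RPKM in beta replicates 1 to 5. Sstr2, through which somatostatin restrains glucagon release, averaged 18 ± 2.05 RPKM in alpha and 0.151 ± 0.0746 in beta libraries (4.05). Gpr119, a receptor of lipid amides, averaged 32.6 ± 3.16 against 3.53 ± 0.666 RPKM (2.88), Ffar4, a fatty acid receptor, 23.3 ± 1.75 against 2.9 ± 1.64 RPKM (2.75), and the beta-1 adrenergic receptor Adrb1 4.5 ± 0.527 against 0.0256 ± 0.0179 RPKM (2.4). Gipr, the receptor of the other incretin, did not pass the test at 19.7 ± 4.66 RPKM in alpha and 24.2 ± 5.6 in beta libraries (95% interval -0.82 to 0.26), except in the fit with a term for the letter b of some library titles (adjusted p = 0.0484), and P2rx4, an ATP-gated channel, stood at 31.5 ± 1.75 against 32.6 ± 2.09 RPKM (-0.22 to 0.16). P2rx4 was called, as higher, only after quantile normalization.

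Downstream of the receptors, genes of G protein signalling were called both ways, at shares near those of all genes. Of 74 genes of G proteins, cAMP enzymes and their regulators, 21 were higher and 27 lower, against 23.7% and 31.3% of all genes. Without alpha replicate 3, 13 were higher. The inhibitory subunit Gnai1 averaged 42.5 ± 6.4 RPKM in alpha and 4.02 ± 1.81 in beta libraries (3.19), while its relative Gnai2 averaged 149 ± 6.34 against 516 ± 56.8 RPKM (-1.81). The gamma subunits went the same way, with Gng2 at 18.8 ± 3.79 against 2.25 ± 0.806 RPKM (2.62) and Gng12 at 20.4 ± 1.98 against 179 ± 29.3 RPKM (-3.0). Gnas, the locus of the stimulatory subunit, averaged 771 ± 36.1 against 168 ± 13.2 RPKM (2.23), but it has an antisense transcript that unstranded libraries do not resolve. The cGMP phosphodiesterase Pde5a was lower (0.949 ± 0.0879 against 16.2 ± 2.82 RPKM) and the cAMP phosphodiesterase Pde4d higher (6.47 ± 0.607 against 1.47 ± 0.371 RPKM).

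Genes of glucose uptake and breakdown were lower in alpha cells. Of 31 tested, 19 were lower and 4 higher, beside 31.3% and 23.7% of all genes (median -0.64). Glucose transporters changed isoform between the types. Slc2a2, the low-affinity transporter, stood at 1.24, 1.29 and 1.54 RPKM in alpha replicates 1 to 3 and 84.8, 165, 72.4, 75.3 and 81 RPKM in beta replicates 1 to 5, and Slc2a3, the high-affinity neuronal type, at 11.5, 15.3 and 15 RPKM in alpha replicates 1 to 3 and 0.0674, 0.103, 0.213, 0.141 and 0.227 RPKM in beta replicates 1 to 5. Neither pair of groups overlapped. Hk1, the low-Km hexokinase that beta cells normally keep silent, stood at 12.2, 19.8 and 13.8 RPKM in alpha replicates 1 to 3 and 0.575, 0.182, 0.887, 0.687 and 0.997 RPKM in beta replicates 1 to 5. G6pc2, the islet glucose-6-phosphatase, averaged 26 ± 2.04 RPKM in alpha and 1017 ± 119 in beta libraries. Fbp1, the fructose bisphosphatase of gluconeogenesis, went the other way (89.3 ± 10.3 against 7.82 ± 5.72 RPKM, 3.48). The glycolytic enzymes Aldoa (409.6 ± 137 against 855 ± 227 RPKM, -1.23) and Pkm (202 ± 47.5 against 411 ± 65.4 RPKM, -1.12) were lower, while Ldha, lactate dehydrogenase, stood at 36.6 ± 21.3 against 27.8 ± 13.5 RPKM and was not called (95% interval -1.18 to 1.42). Gene families such as these have near-identical copies in the genome, which adds uncertainty to single values.

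In mitochondria, 25 of 46 genes of pyruvate entry, the citric acid cycle and its shuttles were lower in alpha cells and 2 were higher, namely Pdk4 and Glud1, glutamate dehydrogenase (79.6 ± 0.477 against 40.4 ± 4.81 RPKM). Of all genes, 31.3% were lower and 23.7% higher. After quantile normalization the counts of this list were 15 lower and 7 higher, and with hormone reads left out 5 were higher. Pcx, pyruvate carboxylase, which refills the cycle, stood at 8.67, 8.43 and 8.52 RPKM in alpha replicates 1 to 3 and 58, 69.3, 48.1, 45.6 and 42.5 RPKM in beta replicates 1 to 5. Pck2, the mitochondrial PEP carboxykinase, averaged 18.6 ± 0.525 against 79.3 ± 16.1 RPKM (-1.99), and Acly, which turns citrate into acetyl-CoA, 292 ± 31.6 against 902 ± 108 RPKM (-1.57).

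Respiratory chain and mitochondrial ribosome genes were lower by small amounts. The shares of all genes, for the counts that follow, were 31.3% lower and 23.7% higher. Of 76 subunits of oxidative phosphorylation, 47 were lower and 2 higher (median -0.33), but 30 were lower after median-ratio scaling, 27 without alpha replicate 3 and 28 with hormone reads left out, and after quantile normalization 18 were lower and 16 higher, with a median of 0.03. Cox6a2, the muscle isoform of a cytochrome oxidase subunit, stood far outside this range at 1.73, 0.989 and 1.39 RPKM in alpha replicates 1 to 3 and 79, 84.2, 43.6, 68.6 and 37 RPKM in beta replicates 1 to 5. Of 74 mitochondrial ribosomal proteins, 43 were lower and 0 higher (median -0.35), with 4 higher after quantile normalization and 3 with hormone reads left out. The cytosolic ribosomal proteins had 10 higher and 9 lower of 79 (median 0.02), counts that moved to 25 and 4 after quantile normalization, to 18 and 5 without beta replicate 1, to 5 and 7 without alpha replicate 2 and to 6 and 4 without alpha replicate 3. The lower count was 5 after median-ratio scaling and 4 with hormone reads left out, and the higher count was 4 with a filter of at least 5 RPKM.

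Of 32 genes of fatty acid uptake and oxidation, 7 were higher and 11 lower, shares near the 23.7% and 31.3% of all genes, and 4 were higher in each of the fits without beta replicate 1, alpha replicate 2 and alpha replicate 3. Hadh, the short-chain hydroxyacyl-CoA dehydrogenase whose loss causes excess insulin release (chromosome 3, 131233419 to 131272101), stood at 12.6, 10.3 and 9.43 RPKM in alpha replicates 1 to 3 and 325, 388, 283, 277 and 246 RPKM in beta replicates 1 to 5 (log2 fold change -4.7, SE 0.16, adjusted p = 3.46e-08). Its neighbours in the pathway did not follow: Acadl stood at 21.6 ± 0.871 against 21 ± 3.0 RPKM (95% interval -0.22 to 0.31) and Acadvl at 34.2 ± 0.548 against 37.2 ± 3.45 RPKM (-0.33 to 0.05), and neither was called. Lpl, the lipase that frees fatty acids from lipoproteins, was higher in alpha cells (177 ± 12.4 against 79.8 ± 23.3 RPKM, 1.24), as was Cpt1c, the brain form of carnitine palmitoyltransferase (12.6 ± 1.78 against 2.98 ± 0.654 RPKM, 1.79). In sterol and fatty acid synthesis, 8 of 31 were higher and 8 lower, with 4 higher without alpha replicate 1, 5 without beta replicate 1 and 5 without alpha replicate 2 and without the sex term, and 4 lower after quantile normalization. The desaturases Scd1 (7.65 ± 0.939 against 3.22 ± 1.51 RPKM) and Fads2 (27.2 ± 2.76 against 8.39 ± 2.98 RPKM) were higher, and the elongase Elovl5 (15.1 ± 0.991 against 65.4 ± 6.22 RPKM) and the sterol enzyme Sqle (44.2 ± 2.66 against 147 ± 22.6 RPKM) lower.

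**Figure D4:**
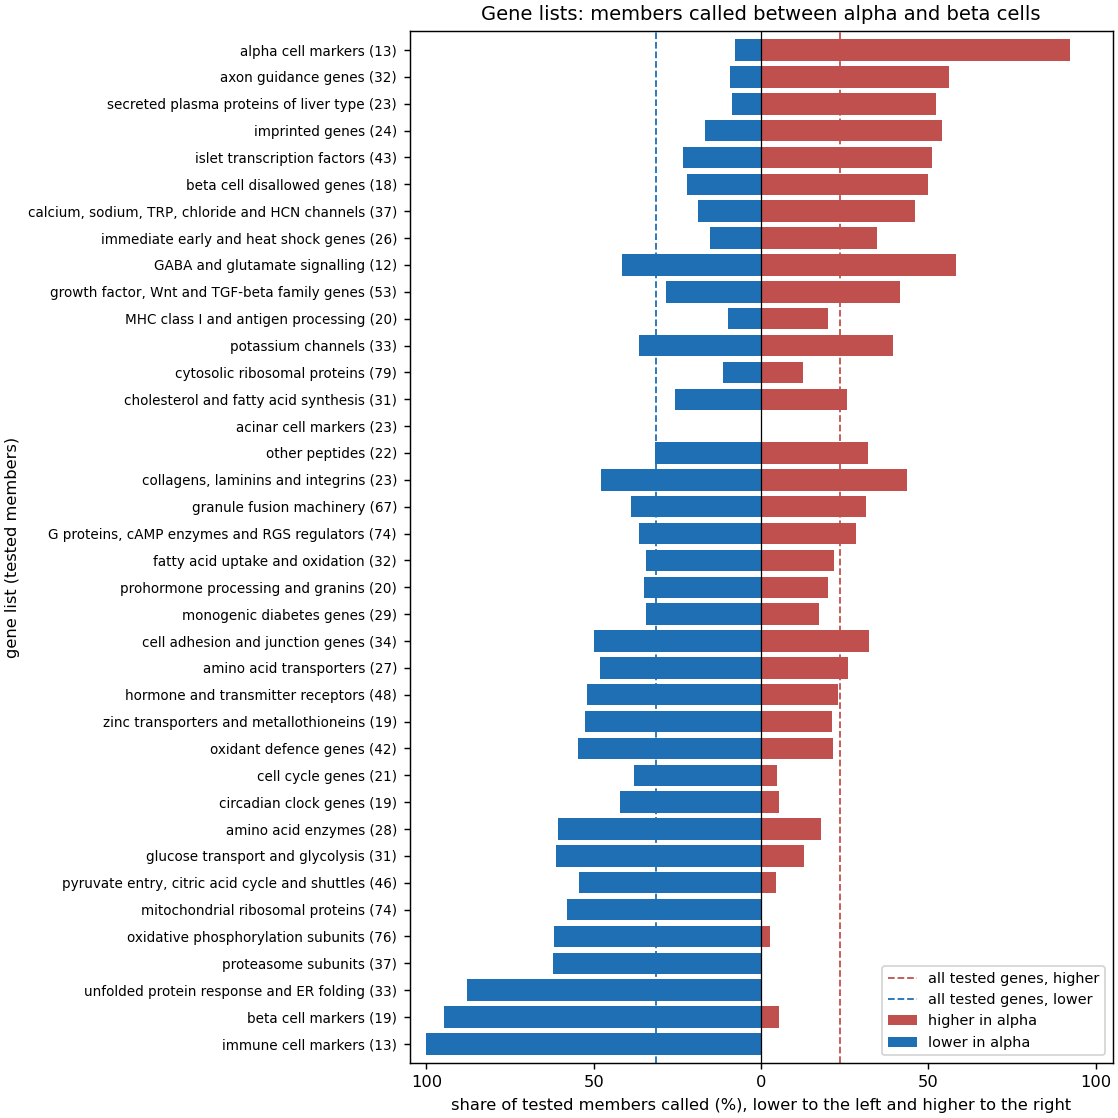
Share of the tested members of each gene list with at least 12 tested members that was called higher (red, to the right) or lower (blue, to the left) in alpha cells. Dashed lines mark the shares among all tested genes, 23.7% higher and 31.3% lower, and the number of tested members stands in brackets. The unfolded protein response list has 29 of 33 members lower and 0 higher, and the axon guidance list 18 of 32 higher.

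Genes of protein folding in the endoplasmic reticulum and of its stress response were lower in alpha cells almost throughout. Of 33 tested, 29 were lower in alpha cells and 0 higher, where 31.3% and 23.7% of all genes were, and the median log2 fold change was -1.06 against -0.03. The lower count was 20 after quantile normalization, 22 without alpha replicate 3, 25 without alpha replicate 1 and 31 without beta replicate 1. In each of these fits 0 were higher. Summed over the list, levels were 2945 to 3138 RPKM in alpha, 5452 to 6582 in beta and 7236 to 7247 in delta libraries. The part of secretory output in these levels was not tested. Cells that make much secreted protein are known to keep this response active, and its branch through Atf4 switches on genes of amino acid supply as well. Atf5, a factor of the same family (chromosome 7, 44812256 to 44816658), stood at 15.4, 12 and 8.98 RPKM in alpha replicates 1 to 3 and 321, 297, 228, 288 and 202 RPKM in beta replicates 1 to 5 (log2 fold change -4.39, SE 0.20, adjusted p = 2.33e-07). Trib3, a pseudokinase induced by the branch, stood at 2.89, 3.38 and 1.93 RPKM in alpha replicates 1 to 3 and 109.6, 70.0, 79.1, 115 and 65.3 RPKM in beta replicates 1 to 5. Ddit3, the factor CHOP, stood at 28.9, 36.7 and 24.2 RPKM in alpha replicates 1 to 3 and 208, 114, 201, 210.1 and 141 RPKM in beta replicates 1 to 5. In each of these genes the highest alpha library lay below the lowest beta library. Atf4 itself averaged 111 ± 10.7 RPKM in alpha and 355 ± 43.9 in beta libraries (-1.67).

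The folding machinery was lower too, by less. Ero1lb, the oxidase that makes disulfide bonds in the islet, averaged 24.1 ± 2.29 RPKM in alpha and 247 ± 53.7 in beta libraries (-3.22). Wfs1, mutated in Wolfram syndrome, averaged 9.88 ± 0.462 against 70.4 ± 15 RPKM (-2.66), and Edem1, which hands misfolded protein to degradation, 6.1 ± 1.14 against 34.6 ± 3.41 RPKM (-2.32). Hspa5, the chaperone BiP, averaged 392 ± 6.77 against 719.5 ± 61.8 RPKM (-0.84). The abundant chaperone Hsp90b1 and the disulfide isomerase Pdia3 did not pass the test, at 443 ± 29.8 against 436 ± 75.4 RPKM (95% interval -0.26 to 0.39) and 367 ± 6.94 against 410.2 ± 28.4 RPKM (-0.32 to 0.04). Of 37 proteasome subunits, 23 were lower and 0 higher, beside 31.3% and 23.7% of all genes, with Psmc2 as an example (56.1 ± 1.76 against 96 ± 9.55 RPKM). These counts depended on scaling and were 10 and 3 after quantile normalization.

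Enzymes that build amino acids were lower in alpha cells along with the stress genes. Of 28 tested, 17 were lower and 5 higher, beside 31.3% and 23.7% of all genes (median -1.26). All 3 enzymes of serine synthesis were among them. Phgdh, the first, stood at 0.48, 0.443 and 0.337 RPKM in alpha replicates 1 to 3 and 24.2, 16.5, 13.6, 23.4 and 14.5 RPKM in beta replicates 1 to 5. Psat1, the second, stood at 8.44, 8.23 and 7.89 RPKM in alpha replicates 1 to 3 and 64.7, 52.6, 37.3, 92.6 and 48.3 RPKM in beta replicates 1 to 5, and Psph, the third, averaged 7.08 ± 0.272 against 47.5 ± 16.2 RPKM (-2.5). Asns, asparagine synthetase, stood at 39.1, 43 and 41.9 RPKM in alpha replicates 1 to 3 and 247, 226, 193, 279.6 and 214 RPKM in beta replicates 1 to 5 (log2 fold change -2.43, SE 0.12, adjusted p = 3.25e-07). Th, tyrosine hydroxylase of dopamine synthesis, was lower too (0.558 ± 0.0451 against 16.1 ± 3.2 RPKM, -3.46). Higher genes included enzymes that act on arginine and ornithine. Oat, ornithine aminotransferase, stood at 22.4, 28.1 and 33.9 RPKM in alpha replicates 1 to 3 and 0.938, 1.12, 1.12, 0.759 and 1.27 RPKM in beta replicates 1 to 5, and Arg1, arginase of the urea cycle, averaged 19.7 ± 3.52 against 2.34 ± 1.18 RPKM (2.67).

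**Figure D5:**
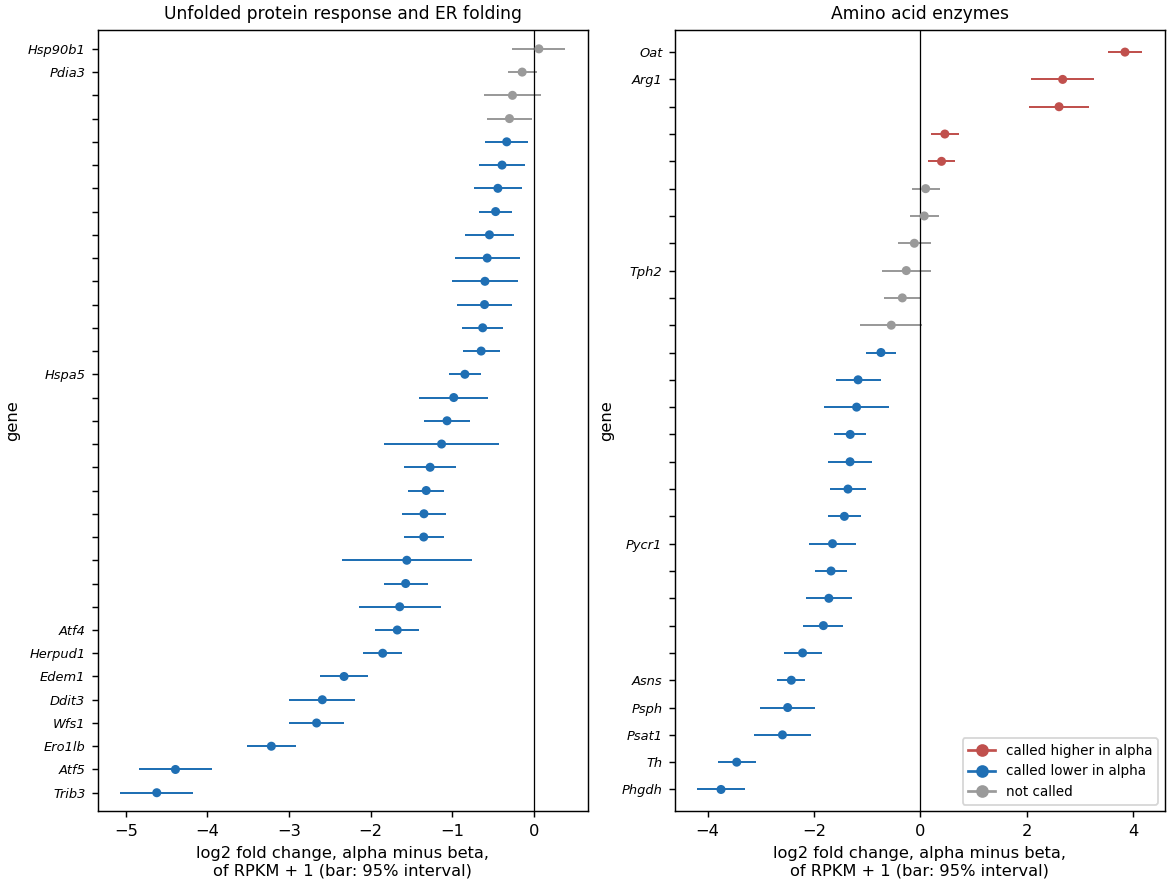
Log2 fold changes of RPKM + 1, alpha minus beta, with 95% intervals, of 33 ER folding and unfolded protein response genes (left) and 28 amino acid enzymes (right). Blue marks genes called lower in alpha cells, red those called higher and grey those not called. On the left 29 genes are blue and 0 red, and on the right 17 are blue and 5 red, from Phgdh at -3.75 to Oat at 3.85, with names printed for genes described in the text.

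Promoters of genes in this response are shown because the members moved together and because Atf4 and its partners are known to bind the amino acid response element, whose core is TGATGNAA. Each run is the 250 bases before the start (RefSeq, GRCm38.p6, 5′ to 3′ on the strand of the gene), with matches of the core on either strand in capitals. Asns lies on the minus strand (chr6:7693210-7693459), Slc7a11, a cystine transporter gene, on the minus strand (chr3:50443614-50443863) and Herpud1, a gene of protein disposal in the endoplasmic reticulum, on the plus strand (chr8:94386179-94386428).
Asns: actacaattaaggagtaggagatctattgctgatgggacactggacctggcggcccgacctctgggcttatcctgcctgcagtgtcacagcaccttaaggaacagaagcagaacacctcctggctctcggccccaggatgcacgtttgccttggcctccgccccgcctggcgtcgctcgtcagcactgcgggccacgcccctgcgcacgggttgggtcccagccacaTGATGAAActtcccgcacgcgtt
Slc7a11: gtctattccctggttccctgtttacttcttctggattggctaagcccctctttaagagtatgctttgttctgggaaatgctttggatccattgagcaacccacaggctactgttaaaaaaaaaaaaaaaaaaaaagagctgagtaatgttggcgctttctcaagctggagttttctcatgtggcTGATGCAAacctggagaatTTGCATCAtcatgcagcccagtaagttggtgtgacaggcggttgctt
Herpud1: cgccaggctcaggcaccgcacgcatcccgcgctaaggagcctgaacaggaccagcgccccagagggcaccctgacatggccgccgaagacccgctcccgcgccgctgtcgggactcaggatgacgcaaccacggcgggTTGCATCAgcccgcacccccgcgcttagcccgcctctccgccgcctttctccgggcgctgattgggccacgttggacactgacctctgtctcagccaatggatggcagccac
The core begins 23 bases before the start in Asns, 66 and 47 bases before it in Slc7a11 and 112 bases before it in Herpud1. These genes averaged 41.3 ± 1.99 against 232 ± 33 RPKM, 0.0616 ± 0.00361 against 1.03 ± 0.398 RPKM and 46.3 ± 4.52 against 168 ± 17.3 RPKM, with log2 fold changes of -2.43, -0.86 and -1.85. The core was in 3.97% of all 32851 windows of 300 bases. Counted by gene, in any window of the gene, it was present for 2.7% of the 9171 tested genes with a window. By call, the share was 3.17% of 2932 genes lower in alpha cells, 2.7% of 2111 higher genes and 2.37% of 4128 genes not called. Of the 26 stress and folding genes with a window 2 held it (Trib3 and Herpud1), of the 21 amino acid enzymes 3 (Asns, Pycr1 and Tph2), and of the 20 transporters 2 (Slc7a11 and Slc1a4). Tph2 was not called, except after quantile normalization, with title pairs as blocks and with a term for the letter b of some library titles, and the other 6 were lower in alpha cells. A match of letters is not a bound site, and most of the lower genes have no match in this window.

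Amino acid transporters divided between the types. Of 27 tested, 7 were higher in alpha cells and 13 lower, beside 23.7% and 31.3% of all genes. Slc38a5, a glutamine and neutral amino acid transporter known from proliferating alpha cells, stood at 42.8, 28.3 and 43.7 RPKM in alpha replicates 1 to 3 and 1.39, 1.38, 0.483, 1.02 and 1.55 RPKM in beta replicates 1 to 5. Slc7a2, a carrier of arginine and other cationic amino acids, stood at 134, 171 and 176 RPKM in alpha replicates 1 to 3 and 17.2, 30.5, 27.5, 25.6 and 33.1 RPKM in beta replicates 1 to 5. Slc38a4 (186 ± 29.9 against 94.9 ± 17.5 RPKM), Slc7a8 (177 ± 14.2 against 58.6 ± 14.8 RPKM) and Slc16a10, an aromatic amino acid carrier (63 ± 1.66 against 29.7 ± 4.44 RPKM), were higher as well. Slc7a5, the large neutral amino acid exchanger, stood at 20.2, 26.2 and 21.3 RPKM in alpha replicates 1 to 3 and 119.7, 137, 102, 128 and 94.2 RPKM in beta replicates 1 to 5. Slc7a1, the other main arginine carrier, was also lower (8.13 ± 1.04 against 23.8 ± 6.68 RPKM, -1.32), as was Slc1a4 for alanine and serine (3.91 ± 0.731 against 16.7 ± 3.37 RPKM, -1.82).

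Genes that defend against oxidants and metals were mostly lower in alpha cells, with Gpx3 as the large exception. Of 42 oxidant defence genes, 23 were lower and 9 higher in alpha cells, beside 31.3% and 23.7% of all genes. Hmox1, haem oxygenase 1, stood at 19.4, 27.5 and 20.9 RPKM in alpha replicates 1 to 3 and 235, 110.1, 149.7, 228 and 116 RPKM in beta replicates 1 to 5. Gstm1, a glutathione transferase, averaged 14.7 ± 5.6 against 98.4 ± 13.7 RPKM (-2.74), and Gpx2, the intestinal glutathione peroxidase, 9.77 ± 2.43 against 50.9 ± 8.3 RPKM (-2.25). Prdx4, the peroxiredoxin of the endoplasmic reticulum, was higher (52.1 ± 5.1 against 20.1 ± 3.37 RPKM, 1.28). Sod1 and Txn1, which every cell uses, stood at 217 ± 23.7 against 235 ± 28.9 RPKM and 71.8 ± 4.71 against 71.4 ± 7.47 RPKM and were not called. Txn1 passed, as higher, after quantile normalization alone. The metallothioneins Mt1 and Mt2, small proteins that bind zinc and copper, were among the most abundant beta transcripts: Mt1 stood at 456, 549.7 and 434 RPKM in alpha replicates 1 to 3 and 3628, 2757, 3528, 3275 and 3373 RPKM in beta replicates 1 to 5, and Mt2 averaged 397 ± 38.8 against 2432 ± 324 RPKM (-2.64). Slc30a8, the transporter that loads zinc into granules and is counted as a beta cell marker, was the reverse, at 403, 371 and 421 RPKM in alpha replicates 1 to 3 and 161, 209, 191, 162 and 202 RPKM in beta replicates 1 to 5. Every alpha library lay above every beta library for Slc30a8.

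Of 20 genes of prohormone processing and granins, 4 were higher and 7 lower in alpha cells, shares near the 23.7% and 31.3% of all genes. Pcsk2, the convertase that cuts proglucagon to glucagon, averaged 1164 ± 93.1 RPKM in alpha and 752 ± 128 in beta libraries. Its chaperone Scg5 was higher as well (1266 ± 57.8 against 794 ± 97.8 RPKM, 0.66, adjusted p = 0.094 after quantile normalization), and so were Pcsk1n, an inhibitor of the other convertase (802 ± 201 against 277 ± 44.2 RPKM, 1.46), and Resp18, a granule protein (3578 ± 337 against 1034 ± 45.4 RPKM, 1.79). The granins Scg2 (737 ± 83.7 against 2387 ± 192 RPKM), Chgb (417 ± 11.9 against 1147 ± 154 RPKM) and Scg3 (403 ± 11.9 against 964 ± 133 RPKM) were lower. The enzymes that both types need did not pass the test: Cpe, carboxypeptidase E, averaged 2102 ± 95.6 RPKM in alpha and 1977 ± 194 in beta libraries (95% interval -0.16 to 0.34), and Pam, which amidates peptides, 394 ± 16.4 against 366 ± 95.7 RPKM (-0.21 to 0.59).

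Genes of granule fusion were called both ways, with some members of the same family in opposite directions. Of 67 genes, 21 were higher and 26 lower, near the 23.7% and 31.3% of all genes. Sytl4, granuphilin, which docks insulin granules, stood at 0.809, 1.06 and 1.25 RPKM in alpha replicates 1 to 3 and 84.8, 122, 94.4, 109.7 and 108 RPKM in beta replicates 1 to 5. Its relatives Sytl5 (41.8 ± 8.2 against 9.29 ± 4.51 RPKM, 2.3) and Sytl2 (11.7 ± 1.79 against 0.121 ± 0.102 RPKM, 3.5) were higher in alpha cells. Rims3, an active zone protein, averaged 0.704 ± 0.187 against 29.1 ± 6.43 RPKM (-4.08), the vesicle GTPase Rab3c 9.49 ± 0.14 against 0.409 ± 0.308 RPKM (2.96) and Rab3d 16 ± 0.369 against 52.4 ± 8.58 RPKM (-1.63). The core SNARE gene Snap25 (81.8 ± 7.94 against 79 ± 25.1 RPKM) and the calcium sensor Syt7 (61 ± 1.37 against 66 ± 8.96 RPKM) were called, as higher, only after quantile normalization.

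Ion channels were called both ways. Of 33 genes of potassium channels, 13 were higher and 12 lower, and of 37 calcium, sodium, TRP, chloride and HCN channel genes, 17 were higher and 7 lower, beside 23.7% and 31.3% of all genes. The latter count of higher genes was 11 without alpha replicate 3. Kcnk3, the acid-sensitive leak channel TASK-1, stood at 34.4, 31.5 and 33.9 RPKM in alpha replicates 1 to 3 and 0.44, 0.526, 0.488, 0.633 and 0.964 RPKM in beta replicates 1 to 5 (4.46). Kcnj3, a channel opened by G proteins, stood at 12, 9.7 and 12 RPKM in alpha replicates 1 to 3 and 0, 0, 0.168, 0.0256 and 0.179 RPKM in beta replicates 1 to 5, and Kcnh6 averaged 64.7 ± 14.4 against 17.7 ± 4.98 RPKM (1.9). The ATP-sensitive potassium channel is the metabolic switch of both types. Kcnj11, which encodes a subunit of it, was at 69.8, 62 and 60.8 RPKM in alpha replicates 1 to 3 and 59.2, 72.4, 58.3, 67.8 and 59.6 RPKM in beta replicates 1 to 5. Its 95% interval for the log2 fold change was -0.17 to 0.26, and it was called only after quantile normalization. Trpm5, a cation channel opened by calcium, was lower in alpha cells (0.0937 ± 0.0251 against 14.1 ± 2.81 RPKM, -3.77), as was Kcnip1, a subunit of A-type channels (log2 fold change -4.06), while its relative Kcnip3 was higher (14.2 ± 1.13 against 0.26 ± 0.165 RPKM, 3.57). Scn3a, a neuronal sodium channel, averaged 7.81 ± 1.72 against 1.45 ± 1.0 RPKM (1.95), Cacna1g, a T-type calcium channel, 2.21 ± 0.24 against 0.217 ± 0.0819 RPKM, and Cacna1d, an L-type channel, 17.3 ± 3.48 against 18.7 ± 4.85 RPKM without a call.

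Of 49 genes of glutamate and GABA signalling, 12 passed the filter, and 36 were under 1 RPKM in all 8 libraries. All 12 tested genes of this group were called, 7 higher and 5 lower in alpha cells, beside 55% of all tested genes called. Members can enter through the type in which they are high, which favours calls. Gria2, an AMPA receptor subunit, stood at 17.1, 21.9 and 25.7 RPKM in alpha replicates 1 to 3 and 0.29, 0.227, 0.879, 0.633 and 0.982 RPKM in beta replicates 1 to 5, and Gria3, another, averaged 30.6 ± 8.57 against 2.41 ± 1.72 RPKM (3.43). The kainate receptor subunits Grik2, Grik4 and Grik5 were higher as well, by 1.46, 1.13 and 1.14. Gad1, which makes GABA, stood at 0.501, 0.807 and 0.532 RPKM in alpha replicates 1 to 3 and 27.6, 33.5, 31.2, 28.9 and 26.8 RPKM in beta replicates 1 to 5. Grin1, the obligatory NMDA receptor subunit, averaged 0.547 ± 0.113 against 12 ± 2.43 RPKM (-3.0). The subunits of the GABA-B receptor went apart, with Gabbr1 at 8.57 ± 1.99 against 3.34 ± 0.933 RPKM (1.19) and Gabbr2 at 2.7 ± 0.741 against 29.3 ± 9.28 RPKM (-2.88).

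Genes of axon guidance were higher in alpha cells in 18 of 32 cases and lower in 3, beside 23.7% and 31.3% of all genes (median 0.40). The lower count was 5 without beta replicate 1, after median-ratio scaling and with a term for the letter b of some titles, and 6 after quantile normalization, while 8 were higher with a filter of at least 5 RPKM. Ntn4, a netrin, stood at 9.79, 12.1 and 11.4 RPKM in alpha replicates 1 to 3 and 0.237, 0.407, 0.771, 0.339 and 1.06 RPKM in beta replicates 1 to 5, and Sema3e, a semaphorin, averaged 9.96 ± 2.06 against 0.666 ± 0.467 RPKM (2.78). The receptors Robo1 (1.64 ± 0.204 against 8.89 ± 2.6 RPKM) and Unc5b (0.295 ± 0.0522 against 6.14 ± 1.97 RPKM) were lower. Cell adhesion and junction genes were lower in 17 of 34 cases and higher in 11, beside 31.3% and 23.7% of all genes. Gjd2, connexin 36, which couples beta cells electrically, stood at 11.1, 8.62 and 10.2 RPKM in alpha replicates 1 to 3 and 81.7, 95.8, 86.1, 90.3 and 81.2 RPKM in beta replicates 1 to 5, and the alpha mean was 11.5% of the beta mean. The synaptic adhesion gene Nlgn2 was higher (48 ± 5.47 against 12 ± 1.8 RPKM, 1.96). The tight junction gene Tjp1 averaged 22.7 ± 3.77 against 24.6 ± 6.63 RPKM and was not called.

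Among growth factor, Wnt and TGF-beta genes, 22 of 53 were higher in alpha cells and 15 lower, beside 23.7% and 31.3% of all genes. Sfrp5, a secreted Wnt antagonist, stood at 179.5, 144 and 120.3 RPKM in alpha replicates 1 to 3 and 8.31, 7.11, 4.15, 4.48 and 2.76 RPKM in beta replicates 1 to 5. Gfra3 and Gfra1, receptors of the GDNF family, averaged 35 ± 4.3 against 1.06 ± 0.324 RPKM and 12 ± 0.996 against 0.336 ± 0.12 RPKM. Igfbp4, a binding protein of insulin-like growth factors, averaged 11.7 ± 4.42 against 0.413 ± 0.201 RPKM (3.2). Egfr (0.189 ± 0.0371 against 5.7 ± 1.69 RPKM) and the neurotrophin receptor Ntrk2 (4.1 ± 1.29 against 18.5 ± 3.23 RPKM) were lower, and Vegfa, which attracts islet vessels, stood at 116 ± 22.4 against 119 ± 23.4 RPKM (95% interval -0.51 to 0.43). Of 23 secreted proteins best known from the liver, 12 were higher and the lower ones numbered 2, or 4 with a term for the letter b of some titles. Fgb, the fibrinogen beta chain, stood at 29.4, 98.1 and 121 RPKM in alpha replicates 1 to 3 and 1.21, 3.7, 5.26, 4.43 and 11.1 RPKM in beta replicates 1 to 5. Trf, transferrin, averaged 18.6 ± 10.4 against 0.989 ± 0.126 RPKM (3.17) and Hamp, the iron hormone hepcidin, 47.1 ± 21.8 against 3.41 ± 2.09 RPKM (3.64). Apoe, apolipoprotein E, was lower (3.83 ± 0.507 against 35.1 ± 17.2 RPKM, -2.81). Macrophages also make Apoe, and the immune markers were lower in the same libraries. Their part in this gene was not tested.

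Among disallowed genes, known for their silencing in beta cells, alpha cells had the higher level in 9 of 18 cases and lower in 4. The shares of all genes, for this count and those of imprinted and immediate early genes below, were 23.7% higher and 31.3% lower. The disallowed list is defined by low levels in beta cells, so the filter on levels favours its higher members. Besides Hk1 and Oat, Slc16a1, the lactate transporter MCT1, averaged 1.25 ± 0.397 against 0.405 ± 0.172 RPKM (0.64). Aldh2, an aldehyde dehydrogenase, was lower (5.64 ± 0.899 against 17.4 ± 2.56 RPKM, -1.46). Of 24 imprinted genes, 13 were higher and 4 lower. Zim1 (48 ± 10.3 against 5.57 ± 3.31 RPKM, 3.13), a zinc finger gene, and Nap1l5 (65 ± 4.28 against 16.7 ± 5.13 RPKM, 2.02), a nucleosome assembly gene, joined Peg10 and Sgce, and Rasgrf1, an exchange factor for Ras, was lower (0.485 ± 0.0543 against 21.8 ± 2.73 RPKM, -3.91). Immediate early genes, which dissociation is known to induce, were higher in 9 of 26 cases with the heat shock genes and lower in 4, but 4 were higher and 2 lower without alpha replicate 3, and 5 were higher without beta replicate 1. After quantile normalization 7 were lower. Jun averaged 108 ± 14.1 against 36.4 ± 5.31 RPKM (1.53) and Klf4 17 ± 2.74 against 2.6 ± 1.07 RPKM (2.39), while Fos stood at 95.2 ± 31.7 RPKM in alpha and 81.9 ± 44.3 in beta libraries and was not called.

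The difference between the cell types did not differ detectably between the sexes. The interaction of cell type and sex, tested with limma in the 8 libraries, gave 0 calls among 12273 genes (0.0%), and 129 genes (1.05%) had an unadjusted p under 0.05. With 1 female alpha library the test is weak. Some abundant genes had narrow intervals around no difference between the cell types: 631 genes had a 90% interval within 0.25 log2 units of 0. Among the most abundant were the ribosomal protein gene Rpl13a (408 ± 47.8 RPKM in alpha and 405 ± 51.5 in beta libraries), the adaptor gene Ywhae (239.5 ± 10.2 against 256 ± 16.8 RPKM), Swi5, a DNA repair gene (177 ± 8.66 against 176 ± 7.19 RPKM), and Cox17, a copper chaperone gene of cytochrome oxidase (147 ± 14 against 151 ± 7.48 RPKM). Of these, Swi5 and Cox17 were called after quantile normalization.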

How the data were processed

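RNA from sorted islet cells of 3 alpha, 5 beta and 2 delta libraries was sequenced with the TruSeq RNA kit v2, which keeps no strand. The authors deposited 1 table of RPKM values. The submitters' processing notes name the aligner STAR 2.4, the read counter featureCounts, edgeR 3.12.0 and build GRCm38.p3. The annotation and how reads matching more than 1 gene were counted are not given in the sources at hand. RPKM are shares of a library, so abundant transcripts lower the others. Library totals were recovered from the smallest steps of the values. Of the gene rows, 27 read as dates and 2 symbols are repeated.

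Tests took genes reaching 1 RPKM in 2 or more of the 8 alpha and beta libraries. Values of log2(RPKM + 1) were fitted by limma 3.58.1 under R 4.3.3 using the mean-variance trend, over 10 libraries, and the terms were cell type and sex. Delta libraries enter the estimates of spread and of the sex term, and through the latter the fold changes. The fit was tested on simulated data. Since the values are RPKM, no count test was run. The alternatives were other pseudocounts, filters, scalings, terms, blocks read from the titles and each library left out.

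Groups came from the labels, and replicate numbers follow accession order. Members and the 47 gene lists were chosen with earlier results of these data known. Named genes are the 7 hormones, the 15 largest called differences in each direction without overlap, up to 6 called members in each direction and up to 4 uncalled members of each list, all members of short and cell identity lists, the 10 most abundant genes of each type, called genes of the interaction and the 5 most abundant genes of narrow interval. Not all of these are printed, and which ones are was settled with the alternatives known. Atf4, Chrm3, Galr1, Herpud1, Hspa5, Pycr1, Slc7a11 and Tph2 were named outside this rule, after their values were seen. Some genes are not reported here by name. The lists are described by counts and medians. Coordinates are 1-based, from GENCODE vM21 on GRCm38, and sequences are from RefSeq.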

Additional observations from a re-analysis of the deposited data

Results flagged for a closer look

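In the group of 5 beta libraries, 1 library stood apart from the other 4 by the Dixon ratio (critical value 0.71) for 10 of the 209 genes named, where chance gives about 1 in 20 groups. Beta replicate 5 was highest for Pyy (626 RPKM, others 359 to 399), Ppy (934, others 449 to 580), Sgce (1.46, others 0.175 to 0.482), Rab3c (0.939, others 0.144 to 0.364) and Grik2 (0.0462, others 0.0116 to 0.0177). All of these are genes higher in alpha cells, and Gcg and Sst were also highest in this library. Beta replicate 2 was highest for Slc2a2 (165 RPKM, others 72.4 to 84.8) and Slc7a8 (84.8, others 49.9 to 55.9) and lowest for Mt2 (1871, others 2449 to 2665). Beta replicate 1 was highest for Rpl13a (495, others 366 to 392) and beta replicate 4 for Unc5b (9.6, others 4.79 to 5.65). Of these genes 9 were called (Rpl13a was not), and each of the 9 kept its call and direction in every fit that left out a beta library.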

How the results depend on the processing

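The rule for named genes gave 545 tested genes, of which 395 were called. Of these, 340 were called in the same direction in each of the 20 fits that tested them, the block fit described last aside, and 0 reversed sign. The most calls were lost without alpha replicate 3 (43), without alpha replicate 2 (23) and without beta replicate 1 (14), and quantile normalization lost 13 and gained 42. The genes printed in the text are a part of this set that was chosen with these fits known, and they kept their calls more often (174 of 180 called), so the share over the whole set is the one to read. The count of higher genes was 2910, and 1867 with a filter of at least 5 RPKM, which tests fewer genes (9297). Leaving out 1 library gave 1779 to 3117 higher and 2773 to 3980 lower genes, with the smallest counts without alpha replicate 3. Without this library the male alpha libraries alone stand for alpha cells. Other alternatives gave 2825 to 3808 higher and 3252 to 4279 lower genes. The interaction of cell type and sex had 0 calls, and 55 without a filter on low values. It had 0 calls in the 7 fits that left out another library, and the fit without alpha replicate 3 could not be made, since no female alpha library is left. A term for the letter b in library titles, which the labels do not explain, left 2893 higher and 4060 lower. With a filter of at least 5 RPKM the higher count of 13 gene lists and the lower count of 5 moved by over 1.5 times, as members with low values were left out. The labels give no shared replicate numbers and state no pairing, but library titles hold neighbouring numbers of the same letter and sex. As an alternative chosen after seeing the data, the 4 title pairs so read (2 of alpha with beta, 2 of delta with beta) entered as a replicate block in place of sex. The block left 2 residual degrees of freedom and gave 2185 higher and 3499 lower genes, and 373 of the 395 genes kept their calls. Ldha, Tph2 and Vgf, not called in the fit reported, passed with it. Deviations from the group means correlated across genes by 0.28 and 0.48 in the alpha and beta pairs and by 0.0007 and 0.39 in the delta and beta pairs. The interaction was not fitted with the block, which leaves no residual degrees of freedom. At 1 RPKM a gene had 16.7 to 26.7 reads per kilobase, so differences among genes under 1 RPKM rest on few reads.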

Other observations

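Further gene groups were measured that belong to none of the functions above. Their counts stand beside shares of 31.3% lower and 23.7% higher among all genes. Cell cycle genes were lower in alpha cells in 8 of 21 cases and higher in 1. Ccnd1, cyclin D1, averaged 33.3 ± 3.57 RPKM in alpha and 56.6 ± 6.76 in beta libraries, and Mcm2, a helicase subunit of replication, 5.05 ± 0.278 against 10.9 ± 2.26 RPKM (-0.88). Clock genes were lower in 8 of 19 cases and higher in 1, with 5 lower without each of alpha replicate 1, alpha replicate 3 and beta replicate 3. The higher count was 3 after median-ratio scaling and without beta replicate 5, and 4 with hormone reads left out of the library total. Ciart, a repressor within the clock, averaged 1.24 ± 0.511 against 6.27 ± 1.11 RPKM (-1.74). The time of day of each sort is not given in the labels used here. Among genes of MHC class I and antigen processing, 4 of 20 were higher and 2 lower, and the higher count was 7 without alpha replicate 1, 2 without alpha replicate 2 and 1 without alpha replicate 3. The lower count was 5 with a term for the letter b of some titles. Tapbp, the peptide loading factor tapasin, averaged 78.9 ± 12.9 against 135 ± 16.2 RPKM (-0.78), while the class I heavy chain H2-D1 stood at 119.7 ± 23.8 against 129.8 ± 25 RPKM and was not called.

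Collagen, laminin and integrin genes were higher in 10 and lower in 11 of 23 cases, beside 23.7% and 31.3% of all genes. Col27a1, a fibrillar collagen gene, averaged 11 ± 4.15 against 2.16 ± 0.718 RPKM (1.99), and the integrin gene Itgb5 9.52 ± 1.82 against 22.6 ± 2.36 RPKM (-1.18). Zinc transporters and metallothioneins were lower in 10 and higher in 4 of 19 cases. Genes whose mutations cause monogenic diabetes were lower in 10 of 29 cases and higher in 5, near the shares of all genes, and the higher count was 3 without beta replicate 4 and 2 without each of beta replicate 1, alpha replicate 2 and alpha replicate 3, and 10 after quantile normalization. Delta cell markers were called higher in 5 of 6 cases and lower in 1. Of 7 ductal markers 4 were higher and 1 lower, with 2 higher without alpha replicate 3. Muc1, a mucin (10.5 ± 5.49 against 2.3 ± 1.19 RPKM), was among those that lost their call there (adjusted p = 0.0593). Spp1, osteopontin, was at 691, 1797 and 1355 RPKM in alpha replicates 1 to 3 and 199, 152, 328, 198 and 255 RPKM in beta replicates 1 to 5, and Krt7, a keratin, averaged 128 ± 8.12 against 375 ± 53.5 RPKM. Of the 10 ductal markers analysed, 3 were under 1 RPKM in all 8 libraries, among them Sox9 and Cftr. Of endothelial, stellate and Schwann cell markers, 3, 2 and 2 passed the filter and 1 of each was higher. Of the red blood cell markers 1, Alas2, was analysed here, at no more than 0.435 RPKM in any of these libraries.

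The genes of each type that were near 0 in the other can be followed library by library. Of the 27 genes on in alpha and off in beta libraries, the median level in beta replicates 1 to 5 was 1.14%, 1.19%, 1.71%, 1.45% and 2.17% of the alpha mean, while Gcg stood at 0.182%, 0.53%, 0.582%, 0.477% and 1.12%. The lowest and highest libraries were the same for both measures. Of the 24 genes on in beta and off in alpha libraries, the median level in alpha replicates 1 to 3 was 1.59%, 2.09% and 1.8% of the beta mean, and Ins2 stood at 0.821%, 0.789% and 0.648%. These genes were chosen for their low level in the other type, so the values are a description. In delta libraries, 7 of the 27 alpha genes averaged 10 RPKM or more and 0 were under 1 RPKM, whereas 5 of the 24 beta genes averaged 10 RPKM or more and 8 were under 1 RPKM. Which cells of each sort carried the residual transcripts was not tested.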
